A study of Mus musculus with 9 samples.

Results

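GFP-TTP-AA macrophages were compared with GFP-TTP macrophages across all genes with RiboSeq, in which the ribosome-protected fragments of mRNA are sequenced and counted per gene, so that a gene's value follows both the amount of its mRNA and the ribosomes on it. The comparison takes 6 of the 9 RiboSeq libraries of the series, 3 of each line, and the other 3 come from macrophages that express GFP alone. All 9 libraries come from bone marrow-derived macrophages (BMDM) of TTP-deficient mice that were immortalized with hcmyc and hRasG12V, so the GFP-only cells lack TTP as well. Each line carried a doxycycline-inducible vector for GFP, for GFP fused to wild-type TTP, or for GFP fused to TTP in which S52 and S178 are replaced by alanine (S52A and S178A). The cells received doxycycline for 6 h at 1 µg/ml, and LPS at 1 µg/ml for 1 h. Each construct was in a line of its own, transduced separately and sorted for GFP, so that the construct and any other difference between the lines cannot be told apart. Of 16921 genes in the table, 10714 have an error for this comparison, and 10102 had a mean scaled value of at least 10 over the 9 libraries and were compared.

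TTP (tristetraprolin, gene Zfp36) is a zinc finger protein that binds AU-rich elements in the 3′UTR of mRNAs, recruits the deadenylation machinery and thereby lowers the stability and translation of mRNAs for cytokines and their regulators. In macrophages LPS activates p38 MAPK and its target kinase MK2, which phosphorylates TTP on S52 and S178, so that TTP becomes more stable but less active on its targets. A TTP with alanine at both sites cannot be phosphorylated there and is known as a constitutively active form of the protein.

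The deposited values are those fitted for each gene and library by the authors' model, with 1 term for the condition and 1 for the date of the library, which in these values runs with the replicate number. After both terms the log2 values kept a residual SD of 1.64e-15. But for the size of the library, the ratio of GFP-TTP-AA to GFP-TTP of a gene is thus the same in all 3 replicate numbers. The libraries of a line differ by the fitted date term only, so no library could be left out. Groups without overlap thus say little of the spread of the reads. Of the 10102 genes compared, 3523 (34.9%) had no overlap between GFP-TTP-AA and GFP-TTP libraries. Values are given divided by the size factor of the library, and the level of a gene is the geometric mean of its 3 values. A log2 fold change is the level in GFP-TTP-AA minus the level in GFP-TTP on the log2 scale. Its standard error (SE) is that of the authors' deposited table for this comparison and rests on the 3 replicates per condition (n = 3 libraries per line in all values below). Fold changes and SE come from a model that draws the changes of genes with few reads towards 0. The sum of fitted values ranged from 2570292 to 12804501 between libraries, with 11180 to 13154 genes at 1 or above. The 8 macrophage markers Csf1r, Itgam, Emr1, Cd68, Lyz2, Fcgr1, Mpeg1 and Spi1 were all measured in each line, and cells positive for CD11b (Itgam) and F4/80 (Emr1) had been selected before the constructs were introduced. Their lowest level was that of Fcgr1 in GFP-TTP macrophages, at 67.4, and their highest that of Lyz2 in GFP-TTP-AA macrophages, at 70753.

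Zfp36, on chromosome 7 of GRCm38, stood at 890.4, 886 and 1022 in the 3 GFP-TTP libraries and at 1474, 1440.3 and 1659.7 in the 3 GFP-TTP-AA libraries. The groups did not overlap, and GFP-only libraries, whose cells carry no TTP construct, lay below both, at 441, 439 and 506. Footprints on the gene were thus 1.63-fold as high with the mutant construct, a log2 fold change of 0.71 (SE 0.25, adjusted p = 0.046, Wald test with Benjamini-Hochberg adjustment). Since the GFP-only libraries also hold footprints on Zfp36, this ratio is one of the gene and not of the construct alone. The paper reports similar amounts of both fusion proteins on western blots. The part of this difference in footprints in the results below was not tested. The sites that differ between the constructs are shown here in the coding strand of the reference gene, with the serine codon in capitals, since they define the comparison. Positions are codons of the reference TTP coding sequence of 319 codons, and both codons read AGC in the reference.
Zfp36 codon 52, chr7:28378350-28378376, minus strand: ggccgctccactAGCctggtggagggc
Zfp36 codon 178, chr7:28377972-28377998, minus strand: cgacaaagcatcAGCttctccggcttg

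Footprints of 1045 genes differed between GFP-TTP-AA and GFP-TTP macrophages past an adjusted p of 0.05, which is 10.3% of the 10102 genes compared (Wald test with Benjamini-Hochberg adjustment over these genes). In GFP-TTP-AA macrophages 521 of them (5.16%) were higher and 524 (5.19%) lower. Of the 1045 genes, 907 (86.8%) had no overlap between the libraries of both TTP lines, against 34.9% of all genes compared. In such bulk libraries fewer cells that express a gene and fewer footprints per cell cannot be told apart. The median log2 fold change of the increases was 0.73 against -0.59 for the decreases, and 118 increases but 39 decreases passed a doubling or halving (1 on the log2 scale). The median of all genes compared was -0.01. Both other scalings of the libraries moved this median up, to 0.0027 and 0.0043, and gave 565 and 568 higher against 474 and 470 lower genes. Genes of high level were called more often. Of the 1279 genes with a mean of at least 1000, 17.2% were past the threshold, with 77 higher and 143 lower. Among the 1662 genes with a mean between 10 and 50, 8.30% were, with 104 higher and 34 lower. The median SE was 0.14 in the former class and 0.25 in the latter, so that a small change of a weakly read gene was not detectable at this depth.

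**Figure D1:**
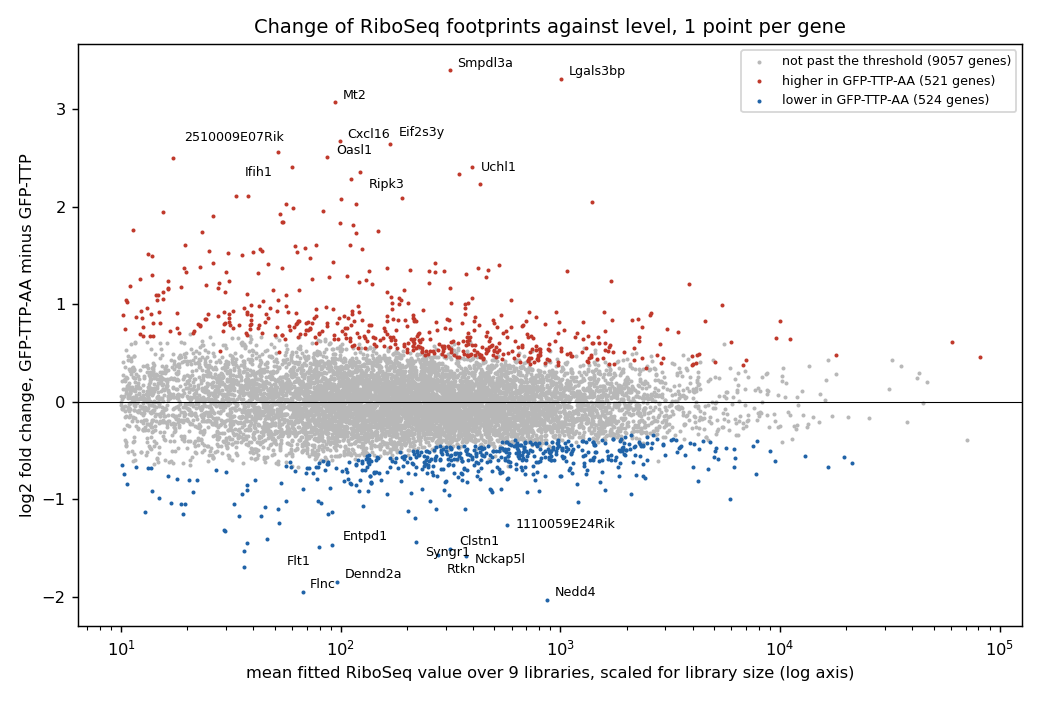
Each point is 1 of the 10102 genes compared. The horizontal axis gives its mean fitted value over the 9 libraries, scaled for library size, on a log axis, and the vertical axis its log2 fold change of GFP-TTP-AA over GFP-TTP. Red genes (521) were higher and blue genes (524) lower past the threshold, and the 10 largest changes in each direction with a mean of at least 50 are named. Increases reach above 3, while no named decrease passes -2.03.

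The largest increases were of genes with varied functions. Smpdl3a encodes a secreted phosphodiesterase related to acid sphingomyelinase. Its values were 60.4, 61.2 and 54.1 with GFP-TTP against 643, 639 and 565 with GFP-TTP-AA, a log2 fold change of 3.39 (SE 0.18, adjusted p = 4.8e-74, same test). Lgals3bp, a secreted glycoprotein that binds galectin-3, stood at 163, 187 and 174 with GFP-TTP against 1639, 1838 and 1712 with GFP-TTP-AA, a change of 3.31 (SE 0.15, adjusted p = 2.0e-105, same test). Neither gene had overlapping libraries, and GFP-only levels of 263 and 1120.2 lay between those of the TTP lines. Mt2, a metal-binding metallothionein, rose from a level of 25.2 to 211. Cxcl16, a membrane-bound chemokine that also acts as a scavenger receptor, rose from 32.7 to 208, and Uchl1, a deubiquitinase best known from neurons, from 145 to 769.7. Ripk3, the kinase that drives necroptosis, stood at 43.3, 34.6 and 40.5 in GFP-TTP and at 224, 176 and 206 in GFP-TTP-AA libraries, 5.11-fold higher (SE 0.23 on the log2 scale, adjusted p = 2.0e-21, same test). Its GFP-only level of 124 again lay between both, as for 10 of the 10 largest increases. These genes were picked for a wide gap between the TTP lines, so that a GFP-only level between them is likely beforehand. The share of all genes with such a level was not computed. The other 4 of the 10 largest increases were Eif2s3y on chromosome Y, the interferon-stimulated genes Oasl1 and Ifih1, and 2510009E07Rik, whose log2 fold change was 2.56. All 10 were taken from genes with a mean of at least 50 over the 9 libraries, which include those of GFP-TTP-AA. Levels with GFP only and GFP-TTP were 34.7 and 17.3 for 2510009E07Rik, 49.4 and 19.5 for Ifih1, and 43.6 and 25.2 for Mt2. These genes thus reached the limit only through GFP-TTP-AA libraries, where they were high.

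Nedd4, a ubiquitin ligase, had the largest decrease. Its values were 1863, 2000.3 and 2075 in GFP-TTP libraries and 463, 488 and 506 in GFP-TTP-AA libraries, so that it fell by 2.03 on the log2 scale (SE 0.16, adjusted p = 4.9e-32, same test). GFP-only libraries held only 133, 142 and 148, below both TTP lines. Flnc, which encodes the actin crosslinker filamin C, fell from a level of 119.7 to 31.1, by 1.95 on the log2 scale (SE 0.23, adjusted p = 7.3e-15, same test). Rtkn, which encodes rhotekin, fell by 1.57 and Clstn1, a membrane protein of the cadherin superfamily, by 1.51. Flt1, a receptor for VEGF, fell by 1.48, Entpd1 (CD39), which degrades extracellular ATP, by 1.47, and Syngr1, a vesicle membrane protein, by 1.43. Dennd2a, Nckap5l and 1110059E24Rik fell by 1.84, 1.58 and 1.26. GFP-only macrophages had levels between those of both TTP lines for 8 of these 10 genes, and below both for Nedd4 and Flt1. These genes too were picked for a wide gap between the TTP lines. Flnc, at 45.5 with GFP only and 31.1 with GFP-TTP-AA, reached the mean of at least 50 only through GFP-TTP libraries. For Entpd1 the GFP-only level of 112 was close to that with GFP-TTP (116), against 42.0 with GFP-TTP-AA.

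**Figure D2:**
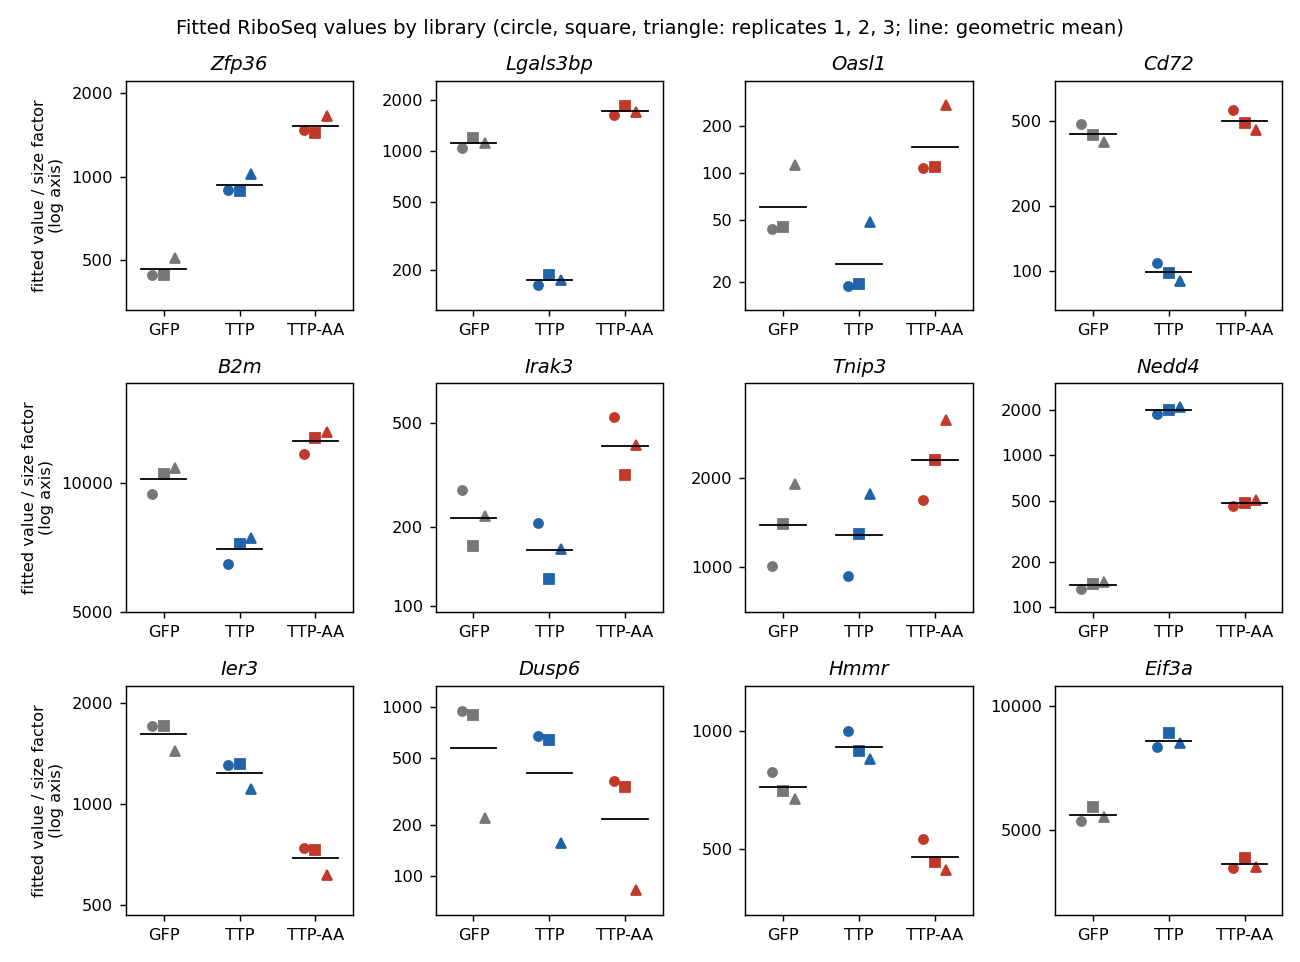
Fitted values divided by the size factor, on a log axis, for 12 genes in the 9 libraries, by line (TTP for GFP-TTP, TTP-AA for GFP-TTP-AA). Circles, squares and triangles are replicates 1, 2 and 3 and the line is their geometric mean. Because the values are fitted, the replicates of a gene are spread in nearly the same way in every line. Lgals3bp, Oasl1 and Cd72 are lowest in GFP-TTP, while Nedd4, Hmmr and Eif3a are highest there, and the libraries of Tnip3 and Dusp6 overlap between both TTP lines.

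Many genes stimulated by interferon were higher in GFP-TTP-AA macrophages. Of 48 genes of this list with enough reads, 29 were higher and 0 lower past the threshold, which is 60.4% of the list against 10.3% of all genes. Like those below, this list was chosen with earlier results of these data known, so that its share is a description only. The median log2 fold change of the list was 0.75 against -0.01 over all genes. The largest changes after Lgals3bp were those of Oasl1, an antiviral member of the oligoadenylate synthetase family, and Ifih1, the cytosolic sensor of double-stranded RNA also known as MDA5. Oasl1 values were 18.7, 19.3 and 48.5 with GFP-TTP against 108, 109 and 273 with GFP-TTP-AA, and its log2 fold change was 2.51 (SE 0.23, adjusted p = 3.6e-24, same test). Ifih1 values were 17.7, 14.7 and 28.3 with GFP-TTP against 95.1, 77.7 and 149 with GFP-TTP-AA, with a change of 2.41 (SE 0.25, adjusted p = 9.9e-20, same test). Replicate 3 was the highest for both genes in each line, and the groups did not overlap. Slfn5, a member of the schlafen family, rose by 2.08 and Sp100, a component of nuclear bodies, by 2.02. Further members that rose include the sensor Ddx58 (RIG-I, 1.28), the guanylate-binding proteins Gbp2 (1.47) and Gbp3 (1.53), Oas3 (1.34), Irf9 (1.14), which is a subunit of the factor ISGF3, Rsad2 (viperin, 0.97) and the ubiquitin-like Isg15 (0.74), all on the log2 scale. Other members stayed short of the threshold. Stat2, which is also a subunit of ISGF3, had a log2 fold change of 0.22 (SE 0.24), and Ifit1 of 0.23 (SE 0.19), and Bst2 stood at 1183 and 1159.6. In GFP-only macrophages the levels were 60.5 for Oasl1, 49.4 for Ifih1, 140.4 for Sp100 and 109 for Slfn5, in each case above GFP-TTP and below GFP-TTP-AA.

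The promoters of these genes were searched on either strand for 2 copies of GAAA with any 2 bases between them, the core of the interferon-stimulated response element that ISGF3 and other interferon regulatory factors bind, from 250 bases before to 50 bases after each RefSeq start (GRCm38.p6). A promoter was available for 39 of the 48 genes, and 23 of these (59.0%) hold this motif. It was found in none of the promoters of Lgals3bp, Oasl1 and Sp100, which are among the largest increases of the list, and it stands in those of Bst2, Ifit1 and Stat2, which did not pass the threshold. Of the members that rose, 14 of 22 with a promoter hold it, and of the others 9 of 17. Since a promoter was available for too few of the members that rose (22 of 29), these were not compared. Among all genes compared a promoter was available for 8198, of which 310 (3.78%) hold the motif, and it stands in 3.44% of all RefSeq promoters. The sites of some members that rose are shown with the match in capitals, to let the shared letters be seen in genes of different families. Each is printed in the direction of its gene, so that a match on the opposite strand shows copies of TTTC. A match is a description of the letters and no evidence of binding.
Ifih1, chr2:62646206-62646233, minus strand: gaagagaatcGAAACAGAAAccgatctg
Ddx58, chr4:40239804-40239833, minus strand: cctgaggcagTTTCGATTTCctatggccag
Isg15, chr4:156200871-156200900, minus strand: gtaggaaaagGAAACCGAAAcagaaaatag
Gbp2, chr3:142620594-142620623, plus strand: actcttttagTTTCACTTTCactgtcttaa
Oas3, chr5:120777715-120777744, minus strand: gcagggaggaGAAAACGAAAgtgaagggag
Lgals9, chr11:78984890-78984919, minus strand: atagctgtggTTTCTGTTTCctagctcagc

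Among the changed genes of antigen presentation and macrophage identity more were higher than lower. In the list of MHC class I presentation and the immunoproteasome, 6 of 21 genes were higher and 2 lower past the threshold (38.1% against 10.3% of all genes), with a median of 0.28. B2m, the invariant light chain of class I molecules, stood at 6469, 7208 and 7449 in GFP-TTP and 11658, 12746 and 13173 in GFP-TTP-AA libraries (log2 fold change 0.83, SE 0.15, adjusted p = 2.2e-06, same test). The groups did not overlap. The heavy chains H2-K1 and H2-D1 rose by 0.92 and 0.84, and Psmb8, a catalytic subunit of the immunoproteasome, by 0.87. H2-K1, H2-D1 and other class I heavy chains are near-identical in parts of their sequence, and the aligner allowed up to 2 alignments per read. Whether such reads entered the counts is not known here, so the separate values of these genes are uncertain. The chaperone calnexin (Canx) fell by 0.50 and the class I-like H2-M3 by 0.50. The call of H2-M3 was lost under both other scalings and with the median of its chromosome subtracted. Of 9 measured genes of class II presentation 3 had enough reads. Cd74, the invariant chain (0.50), and Ctss, the protease cathepsin S that cleaves it (0.89), rose, and the peptide loader subunit H2-DMb1 had a log2 fold change of 0.32 (SE 0.21). The class II chains H2-Aa, H2-Ab1 and H2-Eb1 were below the limit, with mean values of 0.287, 2.44 and 4.25. None of the 37 subunits of the constitutive proteasome was past the threshold, and its most strongly read subunits Psmb6 and Psmd1 had log2 fold changes of 0.05 (SE 0.14) and -0.01 (SE 0.13).

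Among 59 lineage and surface genes of macrophages, 18 were higher and 2 lower (33.9% against 10.3% of all genes), and the median was 0.25. Cd72, an inhibitory receptor, had values of 109.8, 98.0 and 90.6 with GFP-TTP against 559, 489 and 452 with GFP-TTP-AA, 5.02-fold higher (SE 0.19 on the log2 scale, adjusted p = 4.9e-32, same test). Cd52, a short glycoprotein on the surface of leukocytes, rose by 2.23, Pirb, an inhibitory receptor for class I molecules, by 1.84, and Siglece, a sialic acid receptor, by 1.37. Emr1, which encodes the F4/80 antigen, stood at 3089.6, 2093 and 1882 with GFP-TTP against 7200.4, 4786 and 4305 with GFP-TTP-AA (log2 fold change 1.20, SE 0.16, adjusted p = 1.1e-11, same test). Of the 8 markers by which the cells were checked, 5 rose, Emr1, Mpeg1 (0.84), Fcgr1 (0.70), Lyz2 (0.61) and the lineage factor Spi1 (0.34). Csf1r (0.32), Cd68 (0.17) and Itgam (-0.02) were not past the threshold. Lpl, the secreted lipoprotein lipase, fell by 0.62 and the phosphatase Ptprc (CD45) by 0.46. In the lysosomal list 14 of 63 genes were higher and 3 lower (27.0% called), with a median of 0.13. Cpq, a carboxypeptidase, rose by 1.95 and Ids, which cleaves sulfate from glycosaminoglycans, by 0.86, while the proteases Lgmn (legumain) and Ctsc (cathepsin C) fell by 0.54 and 0.48 and the proton pump subunit Atp6v0d2 by 0.63.

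Feedback inhibitors of NF-κB and MAPK signalling, which shut down the response to LPS and include known targets of TTP, moved in both directions. Of 33 genes, 6 were higher and 2 lower past the threshold (24.2% against 10.3% of all genes). A positive log2 fold change was found for 22 of the 33, with a median of 0.23, and for 4852 of the 10102 genes compared. Irak3 (IRAK-M), the pseudokinase that holds back Toll-like receptor signalling, stood at 207, 127 and 165 with GFP-TTP against 526, 316 and 412 with GFP-TTP-AA, and its groups did not overlap. Its log2 fold change was 1.33 (SE 0.21, adjusted p = 7.7e-08, same test). Tnip3 and Tnip1, partners of A20, rose by 0.84 and 0.60, Bcl3, a nuclear IκB protein, by 0.73, the endonuclease Zc3h12a (regnase-1) by 0.66, and Socs3, an inhibitor of cytokine receptors, by 0.51. Tnip3 libraries ranged from 930.0 to 1769.7 in GFP-TTP and from 1688 to 3153 in GFP-TTP-AA macrophages and overlapped. Those of Tnip1 and Zc3h12a overlapped as well. The genes that fell were Dusp6, a phosphatase of ERK, and Ier3, an immediate-early protein with roles in survival. Dusp6 values were 677, 640.0 and 157 with GFP-TTP against 366, 339 and 83.5 with GFP-TTP-AA, so that it fell by 0.91 (SE 0.21, adjusted p = 4.9e-04, same test), and its replicate 3 was far below the other libraries of each line. Ier3 values were 1311, 1314 and 1107 with GFP-TTP against 741, 729 and 614 with GFP-TTP-AA and did not overlap, and it fell by 0.84 on the log2 scale (SE 0.16, adjusted p = 2.2e-05, same test).

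The other 25 feedback inhibitors did not pass the threshold. The log2 fold change of Tnfaip3 (A20), the deubiquitinase of the pathway, was 0.19 (SE 0.19), that of Nfkbia (IκBα) 0.23 (SE 0.15) and that of Dusp1, the phosphatase of p38, -0.26 (SE 0.25). Among the other IκB proteins Nfkbiz stood at 0.48 (SE 0.25), Nfkbib by 0.42, Nfkbie by 0.28 and Nfkbid by -0.30, and the precursor Nfkb2 by 0.18. The MAP kinase phosphatases Dusp2, Dusp4, Dusp5, Dusp8, Dusp10 and Dusp16 lay between -0.39 (Dusp2) and 0.46 (Dusp16). The regulators of ubiquitin and TRAF signalling Cyld, Peli1, Tollip, Traf3, Trafd1, Tnip2 and Sqstm1 lay between -0.24 (Cyld) and 0.46 (Tollip). Atf3 (-0.20), Cish (0.49), Il1rn (-0.08) and the RNA-binding roquin gene Rc3h1 (-0.26) complete the list. Il10 and Socs1 are on it too, but their mean values of 0.752 and 9.55 were below the limit of 10.

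Components of Toll-like receptor and NF-κB signal transduction rose in 6 of 38 cases and fell in 0 (15.8% against 10.3% of all genes), with a median of 0.28. The adaptor Traf1 rose by 1.21 (SE 0.23, adjusted p = 9.9e-06, same test), Tlr9, the receptor of CpG DNA, by 0.82, Birc3 (cIAP2) by 0.79 and Ly96 (MD-2), which binds LPS for TLR4, by 0.54. Nfkb1, the p105 precursor of p50, rose by 0.43. Cytokines and chemokines that LPS induces did not move one way. Past the threshold were 3 higher and 2 lower genes of 31 (16.1%), and 5 were higher with chromosome medians subtracted. Besides Cxcl16 these were the monocyte chemokine Ccl7, at 871, 519 and 739.9 with GFP-TTP against 1669.7, 976 and 1392 with GFP-TTP-AA (log2 fold change 0.92, SE 0.17, adjusted p = 7.4e-06, same test), and Mif (0.57), which rose, and oncostatin M (Osm), which fell by 0.72, and Ccl3 (MIP-1α), which fell by 0.44. With the median of chromosome 11 subtracted neither Osm nor Ccl3 was past the threshold. The list of immediate-early transcription factors also takes in other regulators and was divided too, with 4 higher and 2 lower of 28 (21.4%). The 4 that rose are such other regulators, the inhibitors of DNA binding Id3 (1.00), Id1 (0.91) and Id2 (0.78) and the antiproliferative Btg1 (0.83). The immediate-early genes Egr3 and Ier2 fell by 0.83 and 0.79. Of 31 p38, MK2 and other MAP kinase genes, Mknk2 (MNK2, 0.83), a kinase of the cap-binding protein eIF4E, and the 14-3-3 gene Ywhaq (0.40) rose (6.45%). Of all genes 10.3% were called in either direction and 5.16% were higher. The call of Ywhaq was lost when the median of its chromosome was subtracted.

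The machinery through which TTP acts changed in few of its members. In the list of deadenylation, decapping and decay 4 of 49 genes were lower and 0 higher (8.16%). Of all genes 10.3% were called in either direction and 5.19% were lower. The cytoplasmic poly(A)-binding protein Pabpc1 fell from a level of 5912 to 3676, by 0.69 on the log2 scale (SE 0.17, adjusted p = 0.0014, same test), with 5279, 6431 and 6085 in GFP-TTP and 3324, 3974 and 3759.8 in GFP-TTP-AA libraries. Ttc37 of the SKI complex fell by 0.64, Gigyf2, a partner of the cap-binding 4EHP, by 0.60, and the 5′ to 3′ exonuclease Xrn1 by 0.59. Among 22 AU-rich element binding proteins 3 were higher (13.6%). Zc3h12d, a relative of regnase-1, stood at 26.3, 24.7 and 16.8 with GFP-TTP against 78.8, 72.7 and 49.3 with GFP-TTP-AA, with a log2 fold change of 1.57 (SE 0.24, adjusted p = 1.3e-08, same test), and Igf2bp2, which binds and stabilizes mRNAs, rose by 0.82.

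Genes of cell death included more that rose than fell. Of 30 pro-apoptotic genes and death receptors 6 were higher and 1 lower (23.3% against 10.3% of all genes), with a median of 0.14. Bbc3 (PUMA), a BH3-only protein, had values of 127, 113 and 151 with GFP-TTP against 236, 206 and 275 with GFP-TTP-AA (log2 fold change 0.88, SE 0.20, adjusted p = 4.5e-04, same test). The TNF receptor Tnfrsf1a rose by 0.83, the death receptor Fas by 0.64 and the inflammatory caspase Casp4 by 0.62, while the mitochondrial Aifm1 fell by 0.59. Among 16 survival genes (18.8% called) Birc3 and Pea15a (0.90) rose and Bcl2l1 (BCL-XL) fell by 0.55, a call that was lost when the median of its chromosome was subtracted. The p53 target list, which shares Fas and Bbc3 with the list of cell death, held 7 higher and 1 lower genes of 34 (23.5%), with a median of 0.03. The autophagy regulator Dram1 rose by 0.92 and the stress gene Gadd45b by 0.70, and the repair gene Xpc fell by 0.59. Gadd45b was not past the threshold with the median of chromosome 10 subtracted.

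Stress and metabolic lists changed in single members. Besides Mt2, the metallothionein Mt1 rose by 0.48, the transporters Slc31a2 and Slc39a4 by 1.00 and 0.82, and the zinc importer Slc39a10 fell by 0.50. In this list of metallothioneins and metal transport 4 of 23 were higher and 1 lower (21.7% against 10.3% of all genes). Among 32 antioxidant, haem and iron genes (12.5% called, with 4 rather than 2 higher when chromosome medians were subtracted) Srxn1 (0.64) and Blvrb (0.54) rose, and Aldh2 and Hmox1, the haem-degrading enzyme, fell by 0.48 and 0.46, the last not when the median of its chromosome was subtracted. The ATF4 list held 5 higher genes, led by Cth, which makes cysteine (0.99), and 2 lower ones, the tRNA synthetases Vars and Eprs (Eprs not with the chromosome median subtracted), of 38 (18.4%). With a mean of at least 50 only 2 of 32 were higher, and the median turned from 0.04 to -0.04. The desaturases Scd1, Fads1 and Fads2 fell by 0.76, 0.61 and 0.57 and the fatty acid synthase Fasn by 0.67, while the elongase Elovl1 rose by 0.44. The list of cholesterol and fatty acid synthesis held 5 lower and 2 higher genes of 41 (17.1%), with a median of -0.01. Nr1h3, the sterol receptor LXRα, rose by 1.18 from a level of 13.0. Of 36 genes of glycolysis and hypoxia 3 were higher and 3 lower (16.7%), among the latter hexokinase 2 (Hk2, by 0.74) and the muscle-type phosphofructokinase Pfkm (by 0.71). Nuclear-encoded subunits of oxidative phosphorylation held 7 higher and 2 lower genes of 77 (11.7%, near the 10.3% of all genes, and 4 higher with chromosome medians subtracted), with Ndufa4 (0.58) and Ndufb4 (0.56) rising, the latter only without subtraction of the chromosome median, and Ndufs8 and Ndufs1 falling by 0.52 and 0.50.

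Genes of actin and adhesion moved in both directions. In the list of actin and adhesion 11 of 63 genes were higher and 5 lower (25.4% against 10.3% of all genes). Evl, an Ena/VASP protein of actin filament ends, rose by 1.93, ezrin (Ezr) by 0.74, the calcium-binding S100a6 and S100a4 by 0.71 and 0.66. Vinculin (Vcl), which links adhesion sites to actin, stood at 517, 494 and 521 in GFP-TTP and at 297, 278 and 293 in GFP-TTP-AA libraries and fell by 0.82, the integrin Itga4 by 0.60 and α-actinin 4 (Actn4) by 0.55.

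Genes of protein synthesis and RNA processing passed the threshold in either direction at shares from 5.33% to 14.9%, against 10.3% of all genes. In the translation, biogenesis and splicing lists the called genes were lower but for Noc2l, and of all genes 5.19% were lower. Among all genes with a mean of at least 1000, 17.2% were called, with 143 lower and 77 higher. These lists were not compared with genes of like level. Of 47 translation factors 7 were lower and 0 higher (14.9% against 10.3% of all genes), with a median of -0.15. The largest fall was that of Eif3a, a core subunit of initiation factor 3, with values of 7969, 8606 and 8152 in GFP-TTP and 4054, 4296 and 4069 in GFP-TTP-AA libraries, by 0.99 on the log2 scale (SE 0.13, adjusted p = 2.5e-12, same test). The GTPase Eif5b fell by 0.59 and the scaffold protein Eif4g3 by 0.54. Ribosome biogenesis held 7 lower genes and 1 higher gene of 63 (12.7%). Of the 63, 54 had a negative and 9 a positive log2 fold change, where 4852 of the 10102 genes compared had a positive one. The nucleolar proteins Ncl and Npm1 fell by 0.67 and 0.60, and Nhp2l1, which binds box C/D snoRNAs, by 0.76. Noc2l rose by 0.38, but not with the median of its chromosome subtracted. Splicing and processing held 8 lower and 0 higher genes of 83 (9.64%). Among these Prpf8, the core protein of the spliceosome, fell by 0.78. Of 82 cytosolic ribosomal proteins 2 were higher and 3 lower (6.10% against 10.3% of all genes), with a median of -0.04. They share sequence with many pseudogenes, so that single members such as Rpl7, which fell by 0.82, and Rps4l, which rose by 1.76, are uncertain. Of 75 mitochondrial ribosomal proteins 3 were higher and 1 lower (5.33%).

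Chaperone genes past the threshold were all lower, and of all genes 5.19% were lower and 10.3% called in either direction. In the endoplasmic reticulum list 5 of 47 genes were lower and 0 higher (10.6%), with BiP (Hspa5) falling by 0.56 and its exchange factor Hyou1 by 0.55. In the cytosolic and mitochondrial list 4 of 26 were lower and 0 higher (15.4%), with Hsp90ab1 (HSP90β) falling by 0.57 and the chaperonin Hspd1 by 0.50.

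Mitotic genes past the threshold were all lower. Of 49 genes 13 were lower and 0 higher, 26.5% of the list against 10.3% of all genes, with a median of -0.18. Hmmr, a spindle-associated hyaluronan receptor, stood at 997, 889.9 and 849 with GFP-TTP against 531, 465 and 444 with GFP-TTP-AA and did not overlap (fell by 0.93, SE 0.14, adjusted p = 1.8e-08, same test). The proliferation marker Mki67 fell by 0.72, the kinetochore protein Cenpf by 0.67 and the kinesin Kif20b by 0.66, and the libraries of Mki67 overlapped. In S phase genes 6 of 49 were lower and 0 higher (12.2%, against 5.19% lower and 10.3% called in either direction over all genes). Among them were the single-strand binding protein Rpa1 (by 0.60) and the maintenance methyltransferase Dnmt1 (by 0.55). Among 15 D cyclins, their kinases and CDK inhibitors (26.7% called) Cdkn1c (1.03), Cdkn2a (0.52) and Cdk4 (0.45) rose, and Ccnd1 (cyclin D1) fell by 0.56. The call of Cdk4 was lost with the median of chromosome 10 subtracted. Output genes of the RAS-ERK pathway held 3 lower and 0 higher genes of 15 (20%), which were Hbegf, a ligand of the EGF receptor (by 1.31), Dusp6 and Ccnd1, and their median was -0.26. All lines carry the oncogenes myc and RAS, and their footprints were not analysed here.

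**Figure D3:**
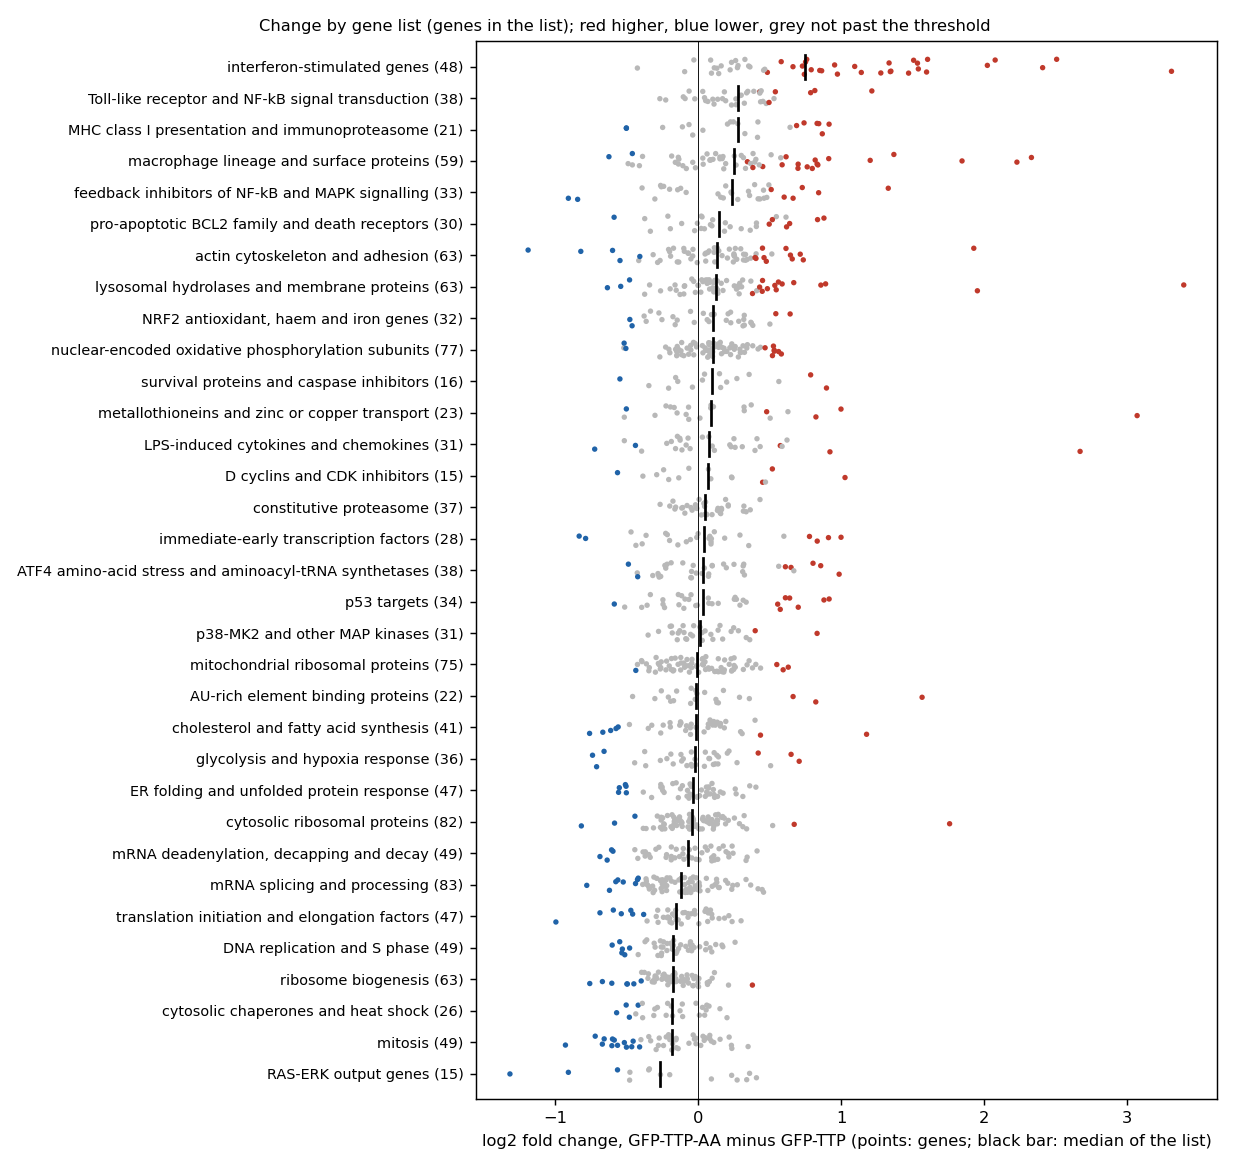
Log2 fold change of GFP-TTP-AA over GFP-TTP for the genes of 33 lists with at least 10 members compared, 1 point per gene, with the number of genes in parentheses and the median as a black bar. Red points were higher and blue points lower past the threshold. The interferon-stimulated genes have the highest median (0.75), and the 8 lists below the cytosolic ribosomal proteins hold 1 red point.

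Most markers of other cell types were near the floor of the table. Of 11 T cell markers 5 are in the table, with Cd3d at 0.138 and 0.140 and Cd4 at 0.379 and 0.368 in GFP-TTP and GFP-TTP-AA macrophages, while Cd28 stood at 122 and 173. Summed over the list the levels were 247 with GFP only and 131 with GFP-TTP against 182 with GFP-TTP-AA. B cell markers (4 of 7 in the table) summed in the same order to 24.6, 18.4 and 23.4, and Cd79a was below 1 in each line. NK cell markers (2 of 7) and fibroblast markers (5 of 9) summed to at most 0.436 and 2.88, and endothelial and epithelial markers (6 of 9) to at most 8.97. Mast cell markers (0 of 6) are not in the table. Neutrophil markers (6 of 10) summed to 74.5, 71.1 and 115. Of these S100a8, which monocytes and macrophages can also express, rose by 1.11, and the granule genes Mpo and Ltf were below 1. The part of other cells in the results was not tested.

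The changes were not spread evenly over the chromosomes. Chromosome 10, with 482 genes compared, had a median log2 fold change of 0.15, and chromosome 16, with 324, one of 0.14, while it was -0.12 over 867 genes on chromosome 11, -0.11 over 364 on chromosome 19 and -0.10 over 397 on chromosome 15. Chromosome 10 held 61 genes that were higher and 7 that were lower past the threshold, and chromosome 3 held 42 and 9. Chromosome 11 held 25 higher and 83 lower genes and chromosome 19 held 10 and 36. All 4 genes of chromosome Y that were compared were higher. Eif2s3y, a subunit of initiation factor 2, stood at 42.9, 50.9 and 62.7 in GFP-TTP and 272, 317 and 389 in GFP-TTP-AA libraries (log2 fold change 2.64, SE 0.22). The helicase Ddx3y rose by 1.85, the histone demethylase Kdm5d by 0.93, and the related Uty from a level of 10.5 to 31.9. In GFP-only macrophages Eif2s3y and Ddx3y stood at 121 and 40.5, between both TTP lines. With the median of its chromosome subtracted from each gene, 917 genes were past the threshold, of which 811 were among the 1045. What lies behind these shifts was not tested.

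**Figure D4:**
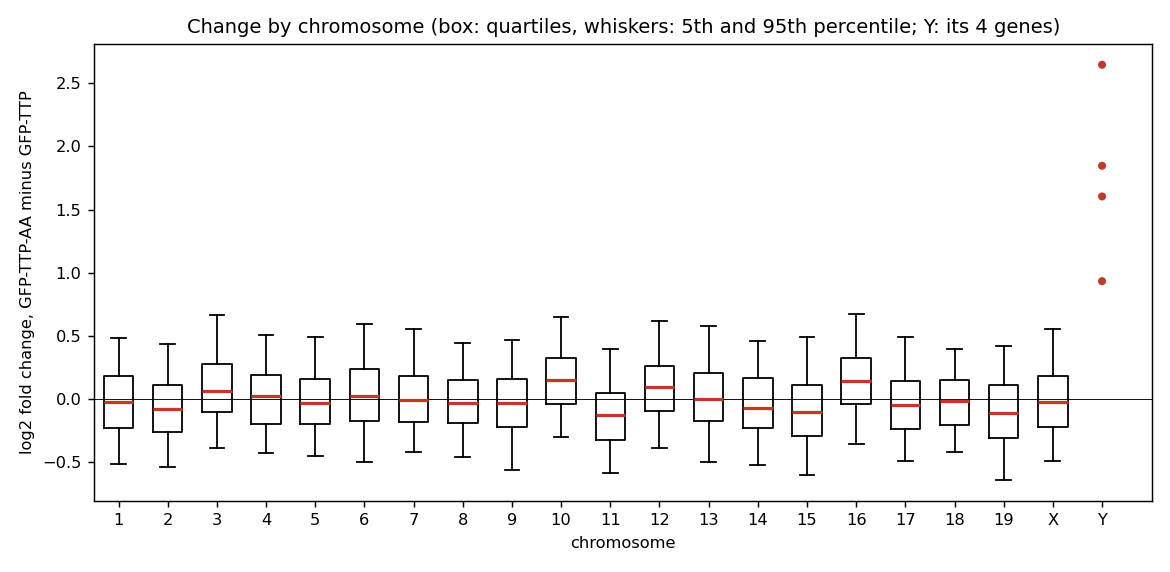
Log2 fold change of GFP-TTP-AA over GFP-TTP for the genes of each chromosome. Boxes give the quartiles with the median in red, whiskers the 5th and 95th percentile, and the points on Y are its 4 genes that were compared. Medians of the other chromosomes lie between -0.12 on chromosome 11 and 0.15 on chromosome 10, and these 4 genes of Y are above 0.

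TTP prefers the 7 bases TATTTAT, so genes were divided by how often the longest annotated 3′UTR (GENCODE M21, GRCm38) holds these letters, overlaps counted. A 3′UTR was found for 9940 genes, 30.7% of which hold at least 1. In the 6885 genes without the letters 419 were higher and 334 lower past the threshold, so that 44.4% of the changed genes were lower. With 1 occurrence it was 68 and 122 of 1981 (64.2% lower), with 2 to 3 occurrences it was 27 and 58 of 923 (68.2%), and with 4 or more it was 2 and 8 of 151 (80.0%). The classes differed mainly in the higher genes. Their share of the class went from 6.09% over 3.43% and 2.93% to 1.32%, while that of the lower genes stayed between 4.85% and 6.28%. The median log2 fold change was 0.01 without the letters and -0.05, -0.07 and -0.07 in the classes with them. These shifts are small beside the median SE of a gene, 0.19, and no test was made of them. The order of the classes was the same with each of the other scalings, apart from the classes of 1 and of 2 to 3 occurrences after subtraction of chromosome medians, where 61.7% and 61.3% were lower. Genes with more occurrences also had longer 3′UTRs, with a median of 868 nt without them and 3640 nt with 4 or more, and a lower median of the mean value (137 against 232). Within 3′UTRs shorter than 500 nt, 77.3% of the changed genes with the letters and 40.1% of those without were lower, and within 3′UTRs of at least 2000 nt 63.8% and 50.8%. This division by length was added after the data were seen.

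**Figure D5:**
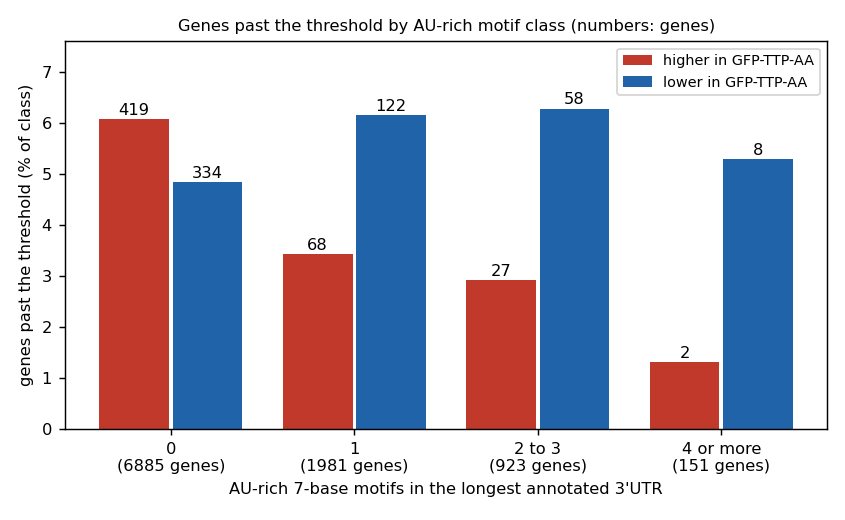
Share of the genes of each class that were higher (red) or lower (blue) past the threshold in GFP-TTP-AA against GFP-TTP macrophages, in percent of the class, by the number of AU-rich 7-base motifs in the longest annotated 3′UTR. Numbers above the bars are genes. The red bars go from 6.09% to 1.32%, and the blue bars lie between 4.85% and 6.28%.

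Occurrences in genes named above are shown with the 7 bases in capitals, in the direction of the gene, to set members that fell beside members that rose. Ier3, which fell, holds 4 occurrences in a 3′UTR of 613 nt. Nedd4, with the largest fall, holds 1 in 2624 nt, Hk2 holds 2 in 2285 nt and Osm 3 in 1017 nt. Birc3 and Tnip3 rose, and their 3′UTRs hold 3 and 1. The larger increases of Slfn5 (2.08) and Ifih1 (2.41) were of genes that hold 2 and 1, which are not printed here. Whether TTP binds these sites in these cells was not tested.
Ier3, chr17:35822531-35822559, plus strand: ggtgtatgtaaTATTTATtctaacttatg
Ier3, chr17:35822586-35822614, plus strand: tgtaacacagaTATTTATtacgatttata
Nedd4, chr9:72749633-72749661, plus strand: gttttcgatttTATTTATaccgctcgagt
Hk2, chr6:82725901-82725929, minus strand: tttatacgagtTATTTATtccagactgtt
Osm, chr11:4240585-4240613, plus strand: gcaagacacttTATTTATccgaatgtcag
Birc3, chr9:7857107-7857135, minus strand: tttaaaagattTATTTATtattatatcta
Tnip3, chr6:65632474-65632502, plus strand: gtttatgcagcTATTTATcggaaagataa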

How the data were processed

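Ribosome-protected fragments of 9 libraries (3 for each of the BMDM lines) were isolated by the authors with a nuclease digest and size exclusion chromatography, depleted of rRNA and sequenced. Per the labels and the study's methods, reads were trimmed with Trim Galore, aligned to mm10 (GRCm38) with TopHat2 (2.0.12 per the labels, another version in the methods) with up to 2 alignments per read, counted per gene with HTSeq and modelled with DESeq2 1.6.3. The signal that the authors deposited per gene and library is the mean fitted by that model with terms for condition and library date, on the scale of the library size. It is not an observed count, the depth of the libraries is known only through the sums of fitted values, and intervals on counts were not computed. The deposited table of the comparison holds the authors' mean, log2 fold change, standard error, statistic and p-values, of which only the standard error of the log2 fold change was used.

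Size factors were computed as the median ratio to the geometric mean over the 1000 genes of lowest fitted mean, since shrinkage leaves little but the library size there. The log2 fold change is the mean over replicate numbers of the log2 ratio of scaled values. It was divided by the standard error (Wald test, two-sided normal p), and p-values were adjusted by Benjamini-Hochberg over the 10102 genes whose fitted mean reached 10, at a threshold of 0.05. Repeated lines of a gene (11) were dropped. Named are the 10 largest changes in each direction among called genes whose fitted mean reached 50, up to 4 members past the threshold per list and direction (up to 2 of highest mean where none passed), all feedback inhibitors and Zfp36. Not every gene that this rule takes is reported here. Genes of chromosome Y, macrophage markers and members named as not past the threshold lie partly outside this rule and were named after their values were seen. The members and lists (41) were chosen with earlier results of these data known. 3′UTRs and coding positions come from GENCODE M21, promoters from RefSeq, both on GRCm38. Scripts ran in Python 3.11.15 with numpy 2.4.6, pandas 2.3.3 and scipy 1.17.1 and were tested on simulated data. Other filters, scalings, a pseudocount of 10 and subtraction of chromosome medians were tried.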

Additional observations from a re-analysis of the deposited data

How the results depend on the processing

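Across the other filters and scalings the count of genes past the threshold lay between 917 and 1076, within 1.5 times the reported 1045. The share of higher genes among them, 49.9%, moved to 46.1% with a mean of at least 50, to 54.4% with libraries scaled to the sum of fitted values, to 54.7% with the median of ratios and to 54.7% with chromosome medians subtracted. No gene named by the rule reversed. Eno2, H2-M3, Mrpl38 and Rpl23a lost their call under both other scalings. With chromosome medians subtracted 20 named genes lost it, and the cause was not tested. The medians of all 34 lists moved by less than the median standard error of their genes, a wide margin, since many of these medians are smaller. In at least 1 setting the median changed sign for LPS-induced cytokines, immediate-early factors, p38-MK2 kinases, AU-rich element binding proteins and the ATF4 list. It also did for cholesterol and fatty acid synthesis, glycolysis and mitochondrial ribosomal proteins. A pseudocount of 10 moved 21 of 193 named genes by more than their standard error. With ATTTA in place of TATTTAT the share of lower genes among the changed genes of the classes was 40.0%, 46.3%, 50.7% and 63.9%. The scalings and length classes of the motif comparison were chosen after seeing the data. No paired analysis was possible because the deposited values are fitted and hold no replicate spread. The model behind the deposited error already has a term for the library date, which runs with the replicate number, and a fit without that term could not be made. Fits without 1 library were not run for the same reason. The errors rest on 3 replicates per line, 1 line per construct, and a model that shrinks changes, which limits what can be seen for weakly read genes.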
